A study of Caenorhabditis elegans with 2 samples.

Results

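The regions described here are 1040 strong ChIP-seq intervals whose summits lay inside coding exons and away from any annotated transcript start. They were taken from the list of 30000 intervals that the authors called on both replicates pooled, on build ce11. The authors labelled this list as peaks and background, made as input for a later filter on reproducibility. The deposited q-value, a false discovery measure, was below 0.05 for 1045 of the 30000 rows and reached 0.906. A row is thus not in itself a called binding site, and strong refers to rank only. The rows of the list were ranked by the deposited signal value, the strength that the authors' peak caller gave each interval. The 5000 strongest were kept. An interval was a member when its summit, the deposited point of highest signal, lay in annotated coding sequence and over 500 bp from the start of every annotated transcript of any class. The other 3960 of the 5000 rows comprised 2326 within 500 bp of a start, 748 in introns, 668 between genes and 218 in other exons, the last 3 kinds all over 500 bp from starts. A further 6035 summits in coding exons over 500 bp from starts ranked below row 5000 and are used as the closest comparison. The members were thus selected on the pooled signal value and the annotation, so that their signal and genomic class are descriptions.

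The study mapped the protein F57C9.4 on chromatin in whole young adult Caenorhabditis elegans of mixed sex, in an assay that its labels class as transcription factor ChIP-seq. There was 1 group, of 2 biological replicates numbered 5 and 6. The worms of both were strain OP550, with the unc-119(tm4063) allele on chromosome III and the integrated transgene wgIs550, which gives F57C9.4 a C-terminal GFP-FLAG tag. They were collected 66 h after synchronisation by L1 starvation following bleaching, and the sonicated chromatin was pulled down through the GFP part of the tag. What was mapped is thus the tagged transgene product in all tissues together, with both replicates drawn from 1 transgenic line. No second condition, untagged strain or control list was analysed here, and the depth of the libraries is unknown. Replicate values measure only the spread between these 2 samples.

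In ChIP-seq, DNA fragments attached to a protein are pulled down and sequenced, and places with many fragments are called as peaks. Sequence-specific transcription factors are usually found at promoters and enhancers, and the body of a coding exon is a less usual place for one. Worm genes are compact, and many are trans-spliced, so that an annotated start can be the splice site of a leader and not the place where transcription begins. Worm coding exons hold more G and C than introns and intergenic DNA, which makes base composition a measure to follow in coding intervals.

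The windows below show the sequences at which such summits lay. The windows at dos-3 (chrIII:835913-836063), F32D8.3 (chrV:10887651-10887801) and nuaf-1 (chrV:13567091-13567241) are among the strongest members, and their windows were coding throughout. The window at mnk-1 (chrII:10547430-10547580) had the highest GC content among the members in the authors' filtered list of 360 peaks, described below. The windows at col-105 (chrIV:1358218-1358368) and col-130 (chrIV:12427731-12427881) belong to cuticle collagens, which had the highest median GC content of the 24 host gene lists. All are plus-strand reference sequence from RefSeq on WBcel235, the assembly of ce11, printed 5′ to 3′ over 151 bases. Capitals mark the 11 bases centred on the summit. F32D8.3 lies on the plus strand and the other 5 hosts on the minus strand.
dos-3: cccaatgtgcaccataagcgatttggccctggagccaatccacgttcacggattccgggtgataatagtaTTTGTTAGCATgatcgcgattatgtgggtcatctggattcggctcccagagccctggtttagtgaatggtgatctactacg
F32D8.3: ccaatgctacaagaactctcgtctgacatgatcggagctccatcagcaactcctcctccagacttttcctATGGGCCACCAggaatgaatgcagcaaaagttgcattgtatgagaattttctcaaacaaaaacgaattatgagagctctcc
nuaf-1: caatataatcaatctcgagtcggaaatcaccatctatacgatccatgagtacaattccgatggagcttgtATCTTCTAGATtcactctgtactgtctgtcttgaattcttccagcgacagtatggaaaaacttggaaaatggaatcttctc
mnk-1: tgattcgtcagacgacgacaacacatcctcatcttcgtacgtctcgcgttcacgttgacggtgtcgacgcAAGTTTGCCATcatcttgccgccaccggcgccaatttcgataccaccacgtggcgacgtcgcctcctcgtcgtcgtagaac
col-105: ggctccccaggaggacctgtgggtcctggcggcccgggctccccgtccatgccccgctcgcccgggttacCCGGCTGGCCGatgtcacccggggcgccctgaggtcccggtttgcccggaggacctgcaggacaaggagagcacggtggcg
col-130: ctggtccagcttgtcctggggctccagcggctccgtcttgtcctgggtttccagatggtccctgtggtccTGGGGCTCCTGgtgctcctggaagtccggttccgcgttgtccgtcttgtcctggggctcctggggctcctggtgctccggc

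The strongest members lay mostly near an annotated transcript end of their host genes. Distances to an end are to the nearest annotated transcript end of the host, which need not be the outermost end of the gene. The first was in the last coding exon of dos-3, whose protein carries the DOS motif known from Notch co-ligands (chrIII:835860-836136). The pooled list gave it a signal value of 168, replicate 5 gave 97.8 and replicate 6 gave 76.5, and its ranks were 10, 12 and 9. Its summit lay 237 bp from the nearest such end and 1068 bp from the nearest start. No other member ranked as high in any of the 3 lists.

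The second was in suro-1, a zinc carboxypeptidase-type gene, with a pooled signal value of 116.03, values of 47.6 in replicate 5 (rank 296) and 70.7 in replicate 6 (rank 13), and a summit 223 bp from a transcript end. F32D8.3 was next with a pooled signal value of 109, with values of 52.1 in replicate 5 and 48.6 in replicate 6, and a summit 247 bp from a transcript end. For nuaf-1, which encodes an assembly factor of respiratory complex I, the pooled value was 103, with 63.8 in replicate 5 and 48.7 in replicate 6. The steroid dehydrogenase gene stdh-1 had 102, 71.6 and 53.3 in the same lists. The summits in F32D8.3, nuaf-1 and stdh-1 lay in the last coding exon, the one in nuaf-1 235 bp and the one in stdh-1 329 bp from a transcript end. The replicate ranks of these 3 ran from 39 (stdh-1, replicate 6) to 210 (F32D8.3, replicate 5), so these genes were near the top of both lists.

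Host genes of the other leading members ranged over enzymes, transporters, kinases and trafficking proteins. The polyketide synthase gene pks-1 differed from those above: its summit lay 9919 bp from the nearest start, the farthest of all members, and 12318 bp from a transcript end. Its pooled signal value was 90.7, with 63.1 in replicate 5 (rank 85) and 25.9 in replicate 6 (rank 837). Summits within 500 bp of a transcript end of the host were found in the amine N-methyltransferase gene anmt-1 (331 bp), the lectin-domain gene clec-264 (293 bp) and the glutamate transporter gene glt-6 (219 bp). The same held for rib-2, a glycosyltransferase gene of heparan sulphate synthesis (206 bp), for best-18, a bestrophin channel gene (151 bp), and for the glycogen debranching enzyme gene agl-1 (366 bp). Farther from any end were the summits in nadk-2, a NAD kinase gene (1342 bp), in cpt-1, a carnitine palmitoyltransferase gene (7195 bp), and in mnk-1, a kinase gene of the MAP kinase pathway (5076 bp).

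The irreproducible discovery rate (IDR) procedure compares the order of peaks between ranked lists, such as those of replicates, and keeps those ranked alike. A high rank in both replicate lists was not required here. The summit in mak-1 was in an IDR peak but in no interval of the replicate 6 list. The authors' IDR list held 360 peaks, which were the 360 strongest pooled rows, so that membership in it is set by the same signal that chose the intervals here. Of the 1040 members, 28 had the summit in an IDR peak, or 2.69% (Wilson 95% interval 1.87 to 3.86%), against 345 of the 3960 other rows, or 8.71% (7.87 to 9.63%), and 7.46% of all 5000 rows. By their own interval, 27 members were in the list, against 7.2% of all 5000 rows. The remaining member, in the GPI anchor synthesis gene pigq-1, had rank 2164 and a summit inside a stronger neighbour's peak. The intervals cover counting error over intervals only.

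Coding exons were thus scarce at the top and frequent lower down. They held 27 of the 360 strongest pooled rows (7.5%), 91 of rows 361 to 1000 (14.2%), 322 of rows 1001 to 2500 (21.5%) and 600 of rows 2501 to 5000 (24.0%). Of all 30000 rows, 23.6% were of this kind. Beyond row 5000 the share stayed between 23.8 and 24.9% in the 3 rank classes. Coding sequence over 500 bp from starts, called eligible below, amounts to 16.8 Mb or 16.7% of the nuclear genome. The share among the 360 strongest rows was below that figure and the shares from row 1001 on were above it. Replicate 5 gave 9.72, 18.8, 22.9 and 23.8% in the first 4 rank classes and replicate 6 gave 9.72, 17.5, 19.9 and 23.8%.

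**Figure D1:**
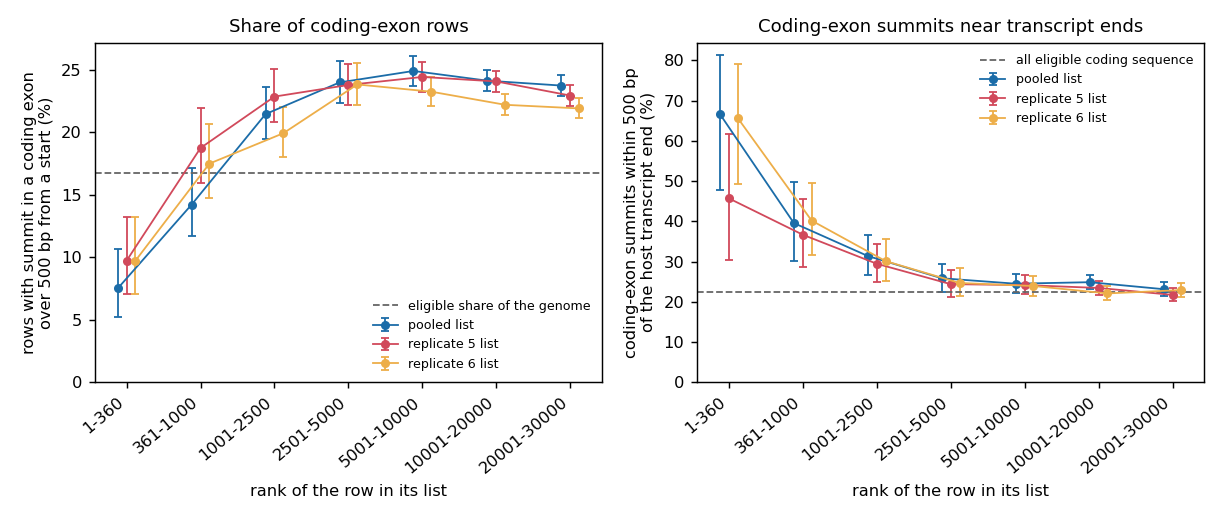
Left, share of rows with the summit in a coding exon over 500 bp from a start; right, share of those summits within 500 bp of an annotated transcript end of the host gene, both by rank class in the pooled, replicate 5 and replicate 6 lists, with Wilson 95% intervals. Dashed lines show the eligible share of the genome (16.7%) and the value over all eligible coding sequence (22.3%). Towards the top of each list coding-exon rows become scarcer and those present lie more often near transcript ends.

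The position of the summits within genes changed along the same ranking. An annotated transcript end of the host gene lay within 500 bp of 18 of the 27 members in the 360 strongest rows (66.7%, Wilson 95% interval 47.8 to 81.4%). The share was 39.6% in rows 361 to 1000, 31.4% in rows 1001 to 2500 and 25.8% in rows 2501 to 5000. It was 29.8% over the 1040 members (310), against 24.1% over the 6035 lower-ranked coding-exon summits and 22.3% over positions spread evenly along eligible coding sequence. The single-replicate lists showed the same order, with 45.7, 36.7, 29.4 and 24.4% in replicate 5 and 65.7, 40.2, 30.1 and 24.7% in replicate 6. The pooled list was made from the same libraries, so that the 3 orders are not independent.

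The top class rested on few intervals, 27 in the pooled list and 35 in each replicate list, and its Wilson interval in replicate 5 ran from 30.5 to 61.8%. The last or only coding exon held 258 members (24.8%), against 18.4% of lower-ranked summits and 17.4% of positions spread evenly. In the same 3 sets the median distance to the host's nearest transcript end was 1061, 1275 and 1318 bp. Starts of a neighbouring gene did not follow this order in the pooled list: one lay within 1000 bp of 13.4% of the members, against 14.0% of the lower-ranked summits and 14.0% of the evenly spread positions. In replicate 5 the share was 12.4% in the 5000 strongest rows, against 13.8% below them. In replicate 6 it was 15.8%, against 13.4% below, and 22.9% (8 of 35) in the 360 strongest rows. Of the 18 members near an end in the 360 strongest rows, 17 had no start of another gene within 1000 bp. Among all 27 members in those rows, 3 had such a start. Of 3745 evenly spread positions near an end, 2728 had none. The rule leaves no start within 500 bp of a summit, so these counts and shares cover only starts beyond that distance. A contribution of neighbouring starts was not tested.

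Each replicate list also held 30000 intervals, and members were looked up in it by the pooled summit. In replicate 5 an interval covered 987 of the 1040 summits (94.9%, against 95.9% of the 3960 other rows and 95.7% of all 5000), and in replicate 6 one covered 829 (79.7%, against 83.6% and 82.8%). Both lists covered 778 (74.8%), against 79.6% of the other rows and 78.6% of all 5000. The median rank of the members found was 3670 in replicate 5 and 5412 in replicate 6, against 3011 and 3771.5 for the other rows. The distance between pooled and replicate summits had a median of 8 bp in replicate 5 and 32 bp in replicate 6. For the other rows it was 7.5 and 30 bp. Pooled summits thus followed those of replicate 5 more closely among the members and the other rows alike.

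Among the 5000 strongest rows of both replicates were 143 members (13.8%), against 24.6% of the other rows and 22.3% of all 5000. Only replicate 5 ranked 453 so high (43.6%, against 38.7% of all 5000), and only replicate 6 ranked 251 so high (24.1%, against 23.3%). Neither did so for 193 (18.6%, against 15.7%). The 143 had a median pooled signal value of 51.5 and included 25 of the 28 members in IDR peaks. The other 3 of the 28 ranked high in replicate 5 only. One of these was in mak-1, a gene for a kinase activated by MAP kinases, at rank 201 in replicate 5 and in no interval of replicate 6. The others were in the myotubularin phosphatase gene mtm-3, at ranks 274 and 6431, and in C01G10.9, at ranks 298 and 9437.

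The opposite case was rsp-8, a splicing factor gene of the SR family, whose summit lay 3 bp from the nearest of its annotated transcript ends. It ranked 108 in replicate 6 with a signal value of 42.5 and 11628 in replicate 5 with a value of 20.2. Over the 778 members in both lists the Spearman correlation of the replicates' signal values was -0.23, and over 3152 other rows it was 0.06. Selection on the pooled signal, to which both replicates contribute, bears on both coefficients. The deposited q-value, a false discovery measure, was below 0.05 for 128 members (12.3%), against 917 other rows (23.2%) and 20.9% of all 5000. The median member had a q-value of 0.201.

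**Figure D2:**
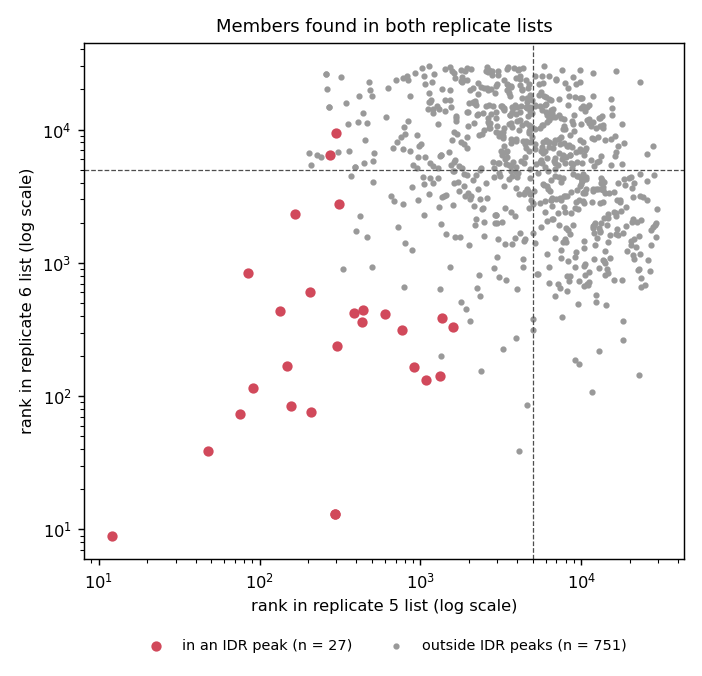
Ranks in replicate 5 and replicate 6 of the 778 members found in both lists, on log scales; dashed lines mark rank 5000. Red points are the 27 members in IDR peaks that both lists hold, most of them in the lower left, and grey points are the 751 others, spread over all 4 quadrants.

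Members in the IDR list were followed by some that ranked high in both replicates without being in it. The trifunctional enzyme gene hadb-1 had ranks 787 and 656 in replicates 5 and 6, at pooled rank 1608. Ranks were 332 and 893 for ZK1320.9, whose window matched a further place in the genome, and 501 and 929 for pgal-1. The lipin gene lpin-1, of fat synthesis, had ranks 1338 and 199. In the pooled list these 4 lay between rank 426 (ZK1320.9) and 2364 (lpin-1).

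GC content was higher at the members than at any of the coding comparison sets. Within 100 bp of the summit the median was 44.8% (quartiles 40.8 and 49.8%), against 42.3% at the lower-ranked coding-exon summits (38.8 and 46.8%), 39.8% over eligible coding sequence (35.8 and 43.8%) and 41.8% at the other rows of the strongest 5000. The quartile ranges of all 3 coding sets overlapped. The number of members per Mb of eligible sequence climbed with GC content in every class, as did that of lower-ranked coding-exon intervals. It was 14.9 under 35% GC, 33.2 from 35 to 40%, 64.8 from 40 to 45%, 115.3 from 45 to 50%, 210 from 50 to 55% and 312.5 at 55% and over. For the lower-ranked intervals it was 166 under 35% GC and 893 at 55% and over. The 5000 strongest rows of replicate 5 alone gave 19.2 per Mb in the lowest class and 292 in the highest, and those of replicate 6 gave 23.8 and 244.

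**Figure D3:**
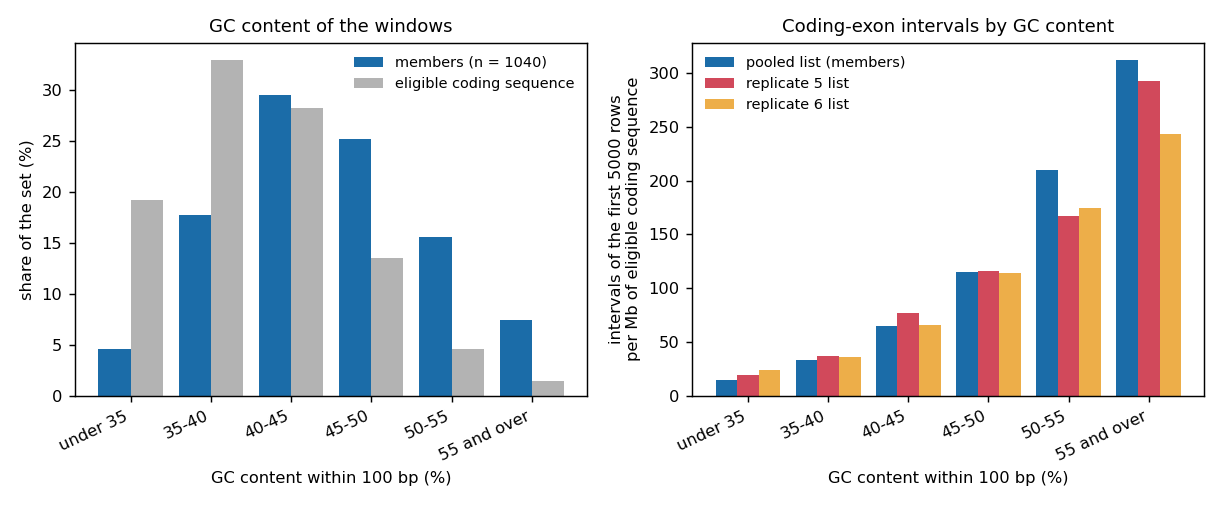
Left, share of the 1040 members and of eligible coding sequence in each class of GC content within 100 bp; right, coding-exon intervals per Mb of eligible sequence among the 5000 strongest rows of the pooled list and of each replicate list. In all 3 lists the bars climb from the lowest class (14.9 to 23.8 per Mb) to the highest (244 to 312.5 per Mb).

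The strongest members had a lower GC content. In the 360 strongest pooled rows their median GC content was 40.3%, against 46.3% in rows 361 to 1000 and 44.8% in both later classes up to row 5000. The gap was smaller in the replicate lists: coding-exon summits in the 360 strongest rows had 41.8% in replicate 5 and 42.8% in replicate 6, against 43.8 and 44.03% over the 5000 strongest rows of each. Rows of the other kinds among the 360 strongest had a median of 43.8% in the pooled list and 42.8% in each replicate list. In these top rows coding-exon summits were thus not richer in GC than the other rows. The 28 members in IDR peaks had a median of 41.0%, against 44.8% for the 1012 outside them. Only 3 of the 28 exceeded 50% GC: mnk-1 with 59.7%, dos-3 with 53.2% and agl-1 with 51.7%. At the low end suro-1 had 30.3%. Among the members GC content and signal were nearly unrelated, with a Spearman correlation of 0.03 for the pooled signal (n = 1040). In replicate 5 it was -0.02 (n = 987), and in replicate 6 it was below 0.01 in size (n = 829). The members were cut on the pooled signal, which narrows its range and bears on these coefficients. Along the pooled list the coding-exon median fell from 44.8% in rows 2501 to 5000 to 41.8% in rows 20001 to 30000.

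The rise in GC content was local to the summit, and the comparison sets rose there too. In bins of 51 bp the mean was 47.4% at the summit and 37.6% at 1000 bp before it, with SDs of 8.32 and 10.7 over members. The summit bin had 45.1% for lower-ranked coding-exon summits, 40.9% for summits in introns and 42.9% for summits between genes. At 1000 bp before the summit these 3 sets had 37.1, 37.4 and 36.6%. The intron curve was highest, at 42.4%, 50 bp after the summit. The rule sets part of this shape, since the summit itself is coding and its flanks need not be. Windows were also set against the other coding sequence of the same transcript. Member windows differed from it by a median of -0.33 percentage points, against -1.11 for lower-ranked summits and -2.54 for evenly spread positions. The windows counted every base, non-coding ones included, and the other side only coding bases. The median distance to the exon edge was 89, 76 and 62 bp in these sets. The order is therefore not one of coding GC content alone. The hosts' other coding sequence was itself at 45.2% GC, against 43.8% and 42.5%.

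**Figure D4:**
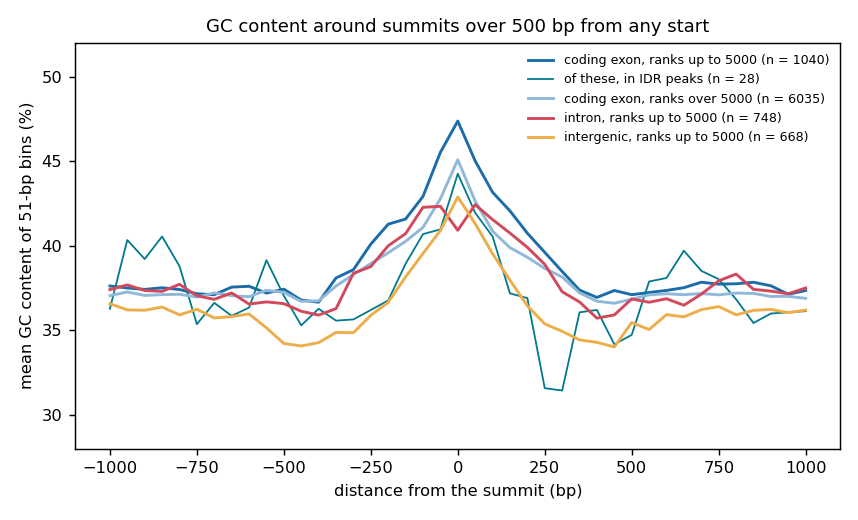
Mean GC content in 51-bp bins by distance from the summit, for members, the 28 of them in IDR peaks, lower-ranked coding-exon summits, and strong summits in introns and between genes. The member curve is highest at the summit, at 47.4%; the curve of the 28 rests on few intervals.

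Short sequences mostly followed the same composition. Of 2080 6-mers, counted on both strands within 50 bp of the summit and allowed to overlap, GGAGGA differed most in favour of the members. It was present at 11.2% of the members, against 7.56% of lower-ranked coding-exon summits and 6.2% of evenly spread positions. CCTGGA was present at 9.52% of members, against 6.13% and 5.01%. Of the 10 6-mers with the largest differences in favour of the members, 9 had 4 or more G or C, and all 10 at the other end had 2 or fewer. The exception was GTTCGA, with 3 G or C, which was present at 7.21% of members, against 4.47% and 5.45%. All of these are presences of letters, chosen for their differences, and no site is implied.

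Exons at the summits were longer, with a median of 363 bp, against 319 bp for lower-ranked summits and 283 bp for evenly spread positions. For the 28 members in IDR peaks the median was 280.5 bp. Coding-exon intervals among the 5000 strongest rows of replicate 6 alone had a median of 316 bp and those of replicate 5 alone had 345 bp. The value of replicate 6 was thus not above the 319 bp of lower-ranked pooled summits. Exon length at the lower-ranked rows of each replicate list was not measured. Repeated sequence was less frequent: 17 members (1.63%) had a window with a second match in the genome at 90% identity or more over at least 100 bases. The share was 2.49% for lower-ranked summits and 6.3% for evenly spread positions. Low-complexity bases occurred in 12.8% of member windows, against 14.6% and 18.9%.

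The 1040 summits fell in 951 protein-coding genes, 5.5% of the 17302 genes with eligible sequence. Of these hosts, 871 held 1 member, 71 held 2 and 9 held 3, and none held more. Their median eligible length was 1239 bp, against 686 bp over all genes with eligible sequence. Per Mb of eligible sequence, the 4326 genes with the most of it held 59.1 members and the 4326 with the least held 70.7. The 9 hosts of 3 members, named after their values were seen, were mcm-4, dapk-1, zyx-1, unc-51, sma-9, lpin-1, cpt-1, unc-89 and mtm-3. In cpt-1 the 3 summits had pooled signal values of 76.6, 61.3 and 46.0 and lay on chromosome II at 12795447, 12793983 and 12789658.

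Neighbouring intervals were not all separate. There were 18 pairs of members that overlapped by at least 1 bp, each pair in 1 gene, and both members of a pair could be covered by 1 replicate interval. In suro-1 the summits at pooled ranks 45 and 294 lay in the same intervals of replicate 5 (rank 296) and replicate 6 (rank 13). In mcm-4, a gene of the replicative helicase, the pair at pooled ranks 835 and 1953 shared an interval at rank 259 in replicate 5 and at rank 26013 in replicate 6. Counted once per pair, 1022 members remained.

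Cuticle and collagen genes were the most heavily represented large list. Cuticle collagens are small structural proteins of repeated glycine triplets, cross-linked to form the worm's outer coat. The list held 33 members in 32 genes, or 3.17% of the members, against 1.61% of lower-ranked coding-exon summits and 1.11% of eligible sequence. Its rate was 178 members per Mb, against 61.9 over all eligible sequence. The median GC content of the 33 windows was 59.7%, with a range of 38.3 to 71.6%. Over all eligible sequence the rate was 210 members per Mb at 50 to 55% GC and 312.5 at 55% and over. Rates within GC classes were not computed for the list.

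Of the 33, 17 were in the 5000 strongest rows of replicate 5 and 11 in those of replicate 6, 1 of them in both, beside 13.8% of all members and 22.3% of all 5000 rows in both. An IDR peak held 0 of the 33, beside 2.69% of all members and 7.46% of all 5000 rows. The interval in col-105, at 71.6% GC the richest of all members, had a signal value of 46.7 in replicate 5 (rank 320) and 9.85 in replicate 6 (rank 25014). For col-95, whose window matched a further place in the genome, the values were 43.97 (rank 409) and 13.6 (rank 11386). For col-8 the order was reversed, with 23.0 (rank 7513) and 24.4 (rank 1097). In lists drawn from a single replicate, collagen and cuticle genes made up 2.38% of the coding-exon intervals in replicate 5 and 1.92% in replicate 6.

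Several smaller lists also had more members per Mb than eligible sequence as a whole. Lipid metabolism and intestine genes held 12 members (143 per Mb), led by the aspartyl protease gene asp-2, the acyl-CoA dehydrogenase gene acdh-12 and the desaturase gene fat-2. Heat shock and chaperone genes held 6 (126 per Mb), among them hsp-70, hsp-60 and hsp-1. Translation factor and tRNA synthetase genes held 9 (118 per Mb), and eef-1A.2, an elongation factor gene, had an overlapping pair at pooled ranks 2122 and 4311. Since hsp-1 and eef-1A.2 windows each match a further place in the genome, reads could have been placed at either. Ribosomal protein genes held 2 members, in rpl-14 and rps-1, in only 6491 eligible bases. An IDR peak held 0 of these 29 members, where the share over all members was 2.69%. In the single-replicate lists the counts were 16 (replicate 5) and 9 (replicate 6) for lipid metabolism and intestine genes, 8 and 6 for heat shock and chaperone genes, and 9 and 7 for translation genes.

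Other lists were sparse in the pooled list. Chemoreceptor genes, a large family of sensory receptors, held 15 members, or 1.44% of the members, against 2.82% of lower-ranked summits and 4.64% of eligible sequence (19.2 members per Mb). In the single-replicate lists their share was 1.83% in replicate 5 and 2.3% in replicate 6. F-box and MATH-BTB genes held 4 (15.3 per Mb) and neuronal channel and synapse genes held 4 (19.1 per Mb). Nucleoporin and nuclear transport genes held 1 (12.5 per Mb), in imb-2. The single-replicate lists held 7 (replicate 5) and 6 (replicate 6) F-box and MATH-BTB intervals, 5 and 3 neuronal ones, and 1 and 3 nucleoporin and nuclear transport ones. Median GC content was 40.3% at the chemoreceptor members and 41.0% at the neuronal ones, but 47.3% at the F-box and MATH-BTB ones. Histone genes, which are short and had 2315 eligible bases, held 0. Over the 24 lists, 192 members lay in a listed gene and 848 in none. Of the 192, 1 lay in an IDR peak, in clec-264, where the share over all members was 2.69% and that over all 5000 rows 7.46%.

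**Figure D5:**
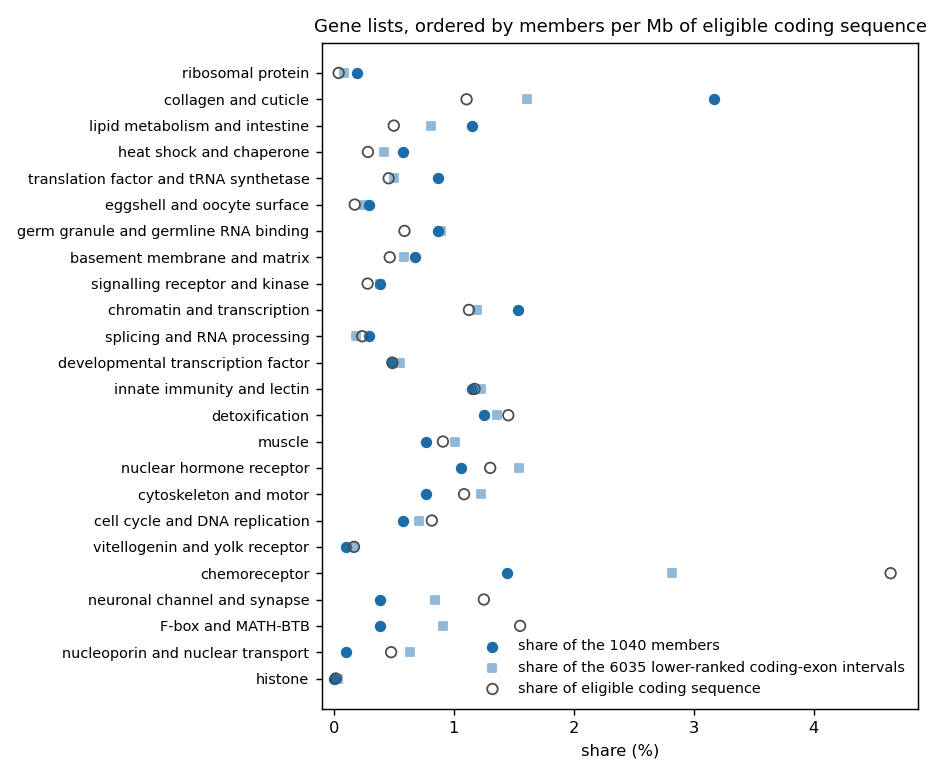
Share of the 1040 members, of the 6035 lower-ranked coding-exon intervals and of eligible coding sequence that fell in each of 24 gene lists, ordered by members per Mb. Collagen and cuticle genes lie to the right of their share of eligible sequence (3.17% against 1.11%) and chemoreceptor genes to the left (1.44% against 4.64%).

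The remaining lists held between 1 and 16 members each. Their rates per Mb of eligible sequence, in brackets, stand beside 61.9 over all of it. Germ granule and germline RNA-binding genes held 9 members (91.2). Among these, the summit in the Argonaute gene wago-4 had rank 562 in replicate 6 and 6868 in replicate 5. The wago-4 window matched a further place in the genome. Chromatin and transcription genes held 16 (84.7), including the demethylase gene jmjd-3.1 and the acetyltransferase gene cbp-1. Detoxification genes held 13 (53.3), muscle genes 8 (52.5), nuclear hormone receptor genes 11 (50.3) and innate immunity and lectin genes 12 (60.9). Basement membrane and matrix genes held 7 (89.7) and cytoskeleton and motor genes 8 (43.9). Cell cycle and DNA replication genes held 6 (43.8) and developmental transcription factor genes 5 (61.2). Signalling receptor and kinase genes held 4 (85.0), eggshell and oocyte surface genes 3 (103), and splicing and RNA processing genes 3 (76.1). Vitellogenin and yolk receptor genes held 1 (35.8), in vit-6, at pooled rank 4847 with a signal value of 35.9. The vitellogenin and yolk receptor list held 2 intervals in the replicate 5 list and 5 in that of replicate 6, and the eggshell list held 2 and 1, so that counts this small changed with the library.

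By chromosome the members ranged from 48.6 per Mb of eligible sequence on IV to 71.7 on II, with 54.4 on I, 66.1 on III, 62.1 on V and 67.5 on X. The median GC content of the members lay between 44.3 and 45.3% on every chromosome. The gene that encodes the tagged protein, F57C9.4 (chrI:4830135-4835622), held no member. The nearest was in its neighbour htp-3, a meiotic chromosome axis gene, 892 bp away at pooled rank 350, with ranks 310 and 2761 in replicates 5 and 6. The 3 members within 20 kb of F57C9.4 lay in htp-3, clec-90 and tofu-4. How many members a stretch of this length holds elsewhere was not counted. Whether the integrated transgene bears on the signal at this locus was not tested.

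Values at the edges of the rule were close together. The members just inside row 5000 were in dapk-1, gpch-1 and Y69H2.3, at ranks 4980, 4981 and 4989 with a signal value of 35.6 each. The coding-exon intervals just outside were in glit-1, unc-52 and spsb-1, at ranks 5008, 5009 and 5010 with 35.6 each. At the other limit, members in zyx-1 and T21E8.4 lay 501 and 503 bp from a start, and intervals in cpt-1 and mnk-1 at 499 bp were not members.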

How the data were processed

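ChIP-seq peak lists of F57C9.4-GFP were analysed for 2 libraries of 1 group. Per the file headers and accompanying text, the authors called intervals per replicate and on the pooled replicates, and derived the IDR list from these; no label or header names the peak caller or aligner. The deposited signal value ranked intervals within a list only. The deposited −log10 q-value was converted to a q-value. The deposited summit offset (another value, in bases) gave the summit. Score and p-value columns were constant.

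Summits were placed on Ensembl release 115 annotation of WBcel235, which is the assembly of ce11, and sequence was read from the RefSeq genome. Where alternative exons covered a summit, exon length was that of the longest. Exon class and the host's other coding sequence were taken from the covering transcript with the longest coding sequence. Eligible coding positions were sampled every 100 bases for GC content and every 1000 for other features. Repeats were searched with blastn 2.17.0. Other steps used python 3.11.15, pandas 2.3.3, numpy 2.4.6 and scipy 1.17.1. Classing and replicate lookup were tested on simulated data.

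The design allows no test between groups, so shares carry Wilson 95% intervals for counting error over intervals. The 24 gene lists are symbol patterns. The members and lists were chosen with earlier results of these data known. Named genes were the 20 members of highest pooled signal, the 10 further ones with the lowest worse replicate rank, up to 3 leading hosts of each list, hosts of 4 or more members (none were found) and the intervals at the edges of the rule; others were named after their values were seen. Not every gene so selected is given in the text. Alternatives covered list depth, distance to starts, GC window, overlap rule, build and single replicates.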

Additional observations from a re-analysis of the deposited data

How the results depend on the processing

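No paired analysis was possible because the series holds 1 group. Of 45 alternatives, 25 stayed within the spread used for them: 1.5 times for counts, the Wilson interval for shares, and the SD over the 2 replicate lists for medians. Alternatives on overlapping members, collagen hosts, members outside the 360 strongest rows and the closer ce10 match were chosen after seeing the data.

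The number of members was 440 in the first 2500 rows, 2286 in the first 10000 and 692 at over 1000 bp from starts. The replicate lists alone gave 1042 to 1093. On build ce10, 1039 of the members had a row of like signal within 0.1% on the same chromosome, and 1036 within 0.001%.

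The share in the IDR list was 6.36% in the first 2500 rows and 1.31% in the first 10000, as follows from a list made of the 360 strongest rows. With a single replicate it was 2.69 to 2.74%. The share found in both replicates was 84.1% in the first 2500 rows and 59.8% in the first 10000. It was 13.8% when each replicate's first 5000 rows were required, and 57.3% when replicate summits had to lie within 100 bp. Of the intervals chosen in 1 replicate list, 40.6 to 43.4% were found in the other.

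Median GC content was 46.5% within 50 bp, 42.3% within 250 bp and 43.1% over the whole interval. It was 43.8% in the first 10000 rows, 43.8 to 44.03% with a single replicate and 44.3% without collagen and cuticle hosts. Each of these single-replicate values is above the 42.3% of lower-ranked pooled summits. Median exon length was 340.5 bp in the first 10000 rows and 316 to 345 bp with a single replicate, so that the 316 bp of replicate 6 lay below the 319 bp of lower-ranked pooled summits. Intervals are 404 bp wide with few exceptions, which limits the precision of a summit, and without read counts signal values carry no counting error.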
